A study of Mus musculus with 12 samples.

Results

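The genes described here are the 41 genes of the DNA replication machinery, chosen by symbol from the 24533 gene rows that each of 2 tables held after clean-up. They cover origin licensing, the replicative helicase, the polymerases, the sliding clamp and the supply of deoxynucleotides. The tables compare mouse bone marrow cells labelled U2af1KO with cells labelled WT. U2af1 encodes the small subunit of the factor that recognises the 3′ splice site of introns. There were 12 RNA libraries in 4 groups of 3, all from the C57BL/6 strain: LSK KO, LSK WT, LinNeg KO and LinNeg WT. LSK cells are the lineage-negative fraction that carries Sca-1 and c-Kit and holds the stem cells, and LinNeg cells are marrow depleted of mature lineages. The LSK source carries the label BMT, which is not spelled out. The age of the mice, the Cre line and how the deletion was induced are not given in the labels.

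Every log2 fold change, standard error and adjusted p below comes from the authors' deposited tables of KO over WT, and a gene is said to rise or fall where the authors' DESeq2 adjusted p was under 0.05. Values per library were not analysed here, so for each gene the mean normalised count under each label was derived from the authors' mean and fold change, taking 3 libraries on each side. The labels do not say that the libraries came from separate animals, and the p-values may therefore measure technical spread. All 41 members had a test in both tables. U2af1 itself was higher in KO, with log2 fold changes of 0.61 in LSK and 0.65 in LinNeg in the authors' deposited tables. A value per gene does not show single exons, and how reads were counted is not given in the sources used here. The genotype labels were therefore not checked, and the cause of the higher U2af1 value was not tested.

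Replication begins in G1, when the origin recognition complex binds origins and, with Cdc6 and Cdt1, loads the ring of MCM subunits on DNA. At the start of S phase Cdc45 and the GINS complex join the ring and turn it into an active helicase. The polymerases then copy the strands, tethered by the Pcna clamp that the Rfc complex loads. Most of these genes are transcribed by E2F factors as cells leave G1. In marrow their level is high in cycling progenitors and low in quiescent stem cells.

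Transcripts of the replication machinery were higher in KO in both populations. In LSK, 34 of the 41 members rose and 2 fell, against 32.4% of all tested genes that rose and 29.2% that fell (61.6% in either direction). Their median log2 fold change was 0.44, and that of all tested genes was 0.04. In LinNeg, 28 members rose and 1 fell, against 22.1% of all genes that rose and 19.3% that fell (41.4% in either direction). Their median there was 0.59, and that of all genes was 0.16. All genes, here and below, include those of low count, whereas the lowest authors' mean of a member was 568 (Rpa3 in LSK). Restricted to genes averaging 100 normalised counts or more, the shares called in either direction were 78.4% in LSK and 53.5% in LinNeg. Their medians were 0.03 in LSK and -0.02 in LinNeg. The contrast in share called is smaller against these genes. Recentring on their median was not run. Set relative to the median of all tested genes, 19 members stood higher and 2 lower in LinNeg, where 41.7% of all genes were called in either direction. The calls of Mcm5, Mcm7, Gins1, Prim1, Pole, Rpa2, Pcna, Rfc5 and Tk1 in LinNeg were lost on that scale. With gene means set to equal sums, those of Mcm6, Pold1 and Rfc3 in LSK were lost. The rises were mostly small: 4 members rose by at least 2-fold in LSK and 6 in LinNeg, which is 9.76% and 14.6% of the members, near the 9.75% and 14.0% of all genes.

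Most members took the same direction in both populations. There were 25 that rose in both, and Rfc2 fell in both. A further 9 rose in LSK with no call in LinNeg, while Orc4, Mcm5 and Pole rose in LinNeg with no call in LSK. Tyms fell in LSK with no call in LinNeg, and Pola1 and Rfc1 were called in neither. The shares of all genes with such pairs of calls were not counted, so these counts have no background beside them. Across the 41 genes the log2 fold changes of LSK and LinNeg had a Pearson r of 0.70 and a Spearman rho of 0.63. Over the 15735 genes tested in both tables these were 0.28 and 0.34. All points of a table share its 6 libraries, so these are descriptions. The median standard error of the members was 0.07 in LSK and 0.20 in LinNeg, and the same log2 fold change has a larger p in LinNeg.

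**Figure D1:**
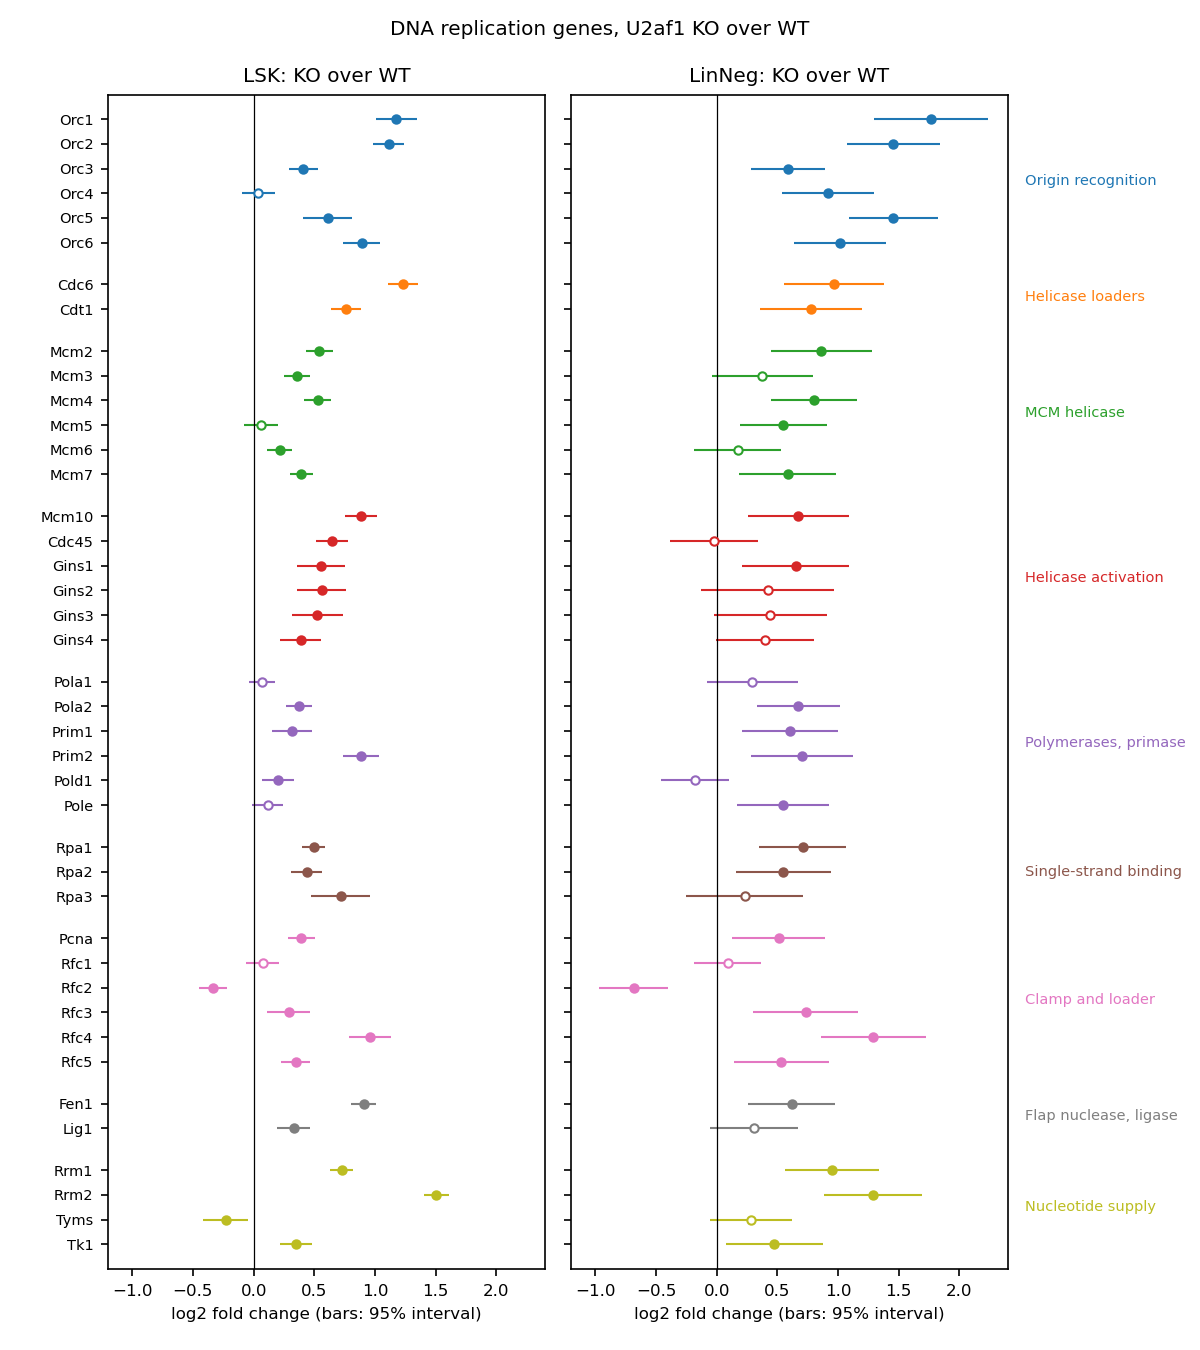
Log2 fold changes of the 41 members, KO over WT, in LSK (left) and LinNeg (right), ordered by role. Points are the authors' estimates, bars are 95% intervals from their standard errors, filled points passed an adjusted p of 0.05 and open points did not; most points lie right of 0, Rfc2 lies left of it in both panels, and the LinNeg bars are wider.

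Markers of other cell states moved with this result. All 11 tested erythroid markers of 15 listed rose in LSK and 10 of 11 in LinNeg, and their summed derived means were 137835 in KO and 29382 in WT of LSK, and 113146 in KO and 23232 in WT of LinNeg. The adult beta-globin genes Hbb-bt and Hbb-bs were listed at 0. Of 15 stem cell markers 12 fell and 1 rose in LSK, with sums of 32568 in KO and 115041 in WT. In LinNeg 6 fell and 4 rose, with sums of 10529 in KO and 16492 in WT. Of 12 myeloid markers, 8 rose and 2 fell in LSK, with sums of 174475 in KO and 65910 in WT. In LinNeg 10 fell and 0 rose, with sums of 4638 in KO and 134318 in WT. In bulk RNA, fewer cells of a type and less RNA per cell cannot be told apart, and the part of these shifts in the replication gene result was not tested. Kit and Ly6a, which encode the c-Kit and Sca-1 of the LSK gate, were both present in LSK: Kit had derived means of 14587 in KO and 28724 in WT, and Ly6a had 335 in KO and 593 in WT.

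Transcripts typical of other tissues also moved, as did sex-linked ones in LSK and Xist in LinNeg. All 14 neural markers rose in LSK and 10 of 14 in LinNeg. In LSK their summed derived means were 9530 in KO and 4837 in WT, and in LinNeg they were 44458 in KO and 11507 in WT. All 9 seminal vesicle markers rose in LinNeg, with sums of 243729 in KO and 373 in WT, and were listed at 0 in LSK. Xist was at 7.49 in LSK and 10.02 in LinNeg, and Ddx3y, a Y-linked gene, at -9.21 in LSK and -0.79 (adjusted p = 0.739) in LinNeg in the authors' deposited tables. Of 6 sex chromosome markers, 2 rose and 4 fell in LSK, and 5 passed no threshold in LinNeg. Among markers of mature lineages, 1 rose and 2 fell of 11 tested in LSK, and 2 rose and 1 fell of 9 tested in LinNeg, with sums of 6756 in KO and 11043 in WT of LSK, and 13612 in KO and 14546 in WT of LinNeg. The part of these markers in the results was not tested, and no library could be left out without values per library.

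Motifs were counted upstream of the members' start sites. RefSeq start sites (build GRCm38.p6) were on hand for 34 of the 41 members (not for Mcm4, Gins1, Gins2, Gins4, Prim2, Pole and Rfc2), and the 250 bases before each start were searched on both strands. The E2F words TTTCCCGC, TTTCGCGC, TTTGCCGC and TTTGGCGC, which can overlap each other, were found before 9 of the 34 members, or 26.5%. They were found before 2.16% of all 27025 genes with an entry and before 3.61% of the 11808 such genes tested in both tables. Among other replication genes with an entry the share was 10.9%, and among mitosis markers with an entry it was 6.67%, 1 of 15. The box CCAAT, bound by NF-Y, stood before 22 members, or 64.7%, against 37.5% of all genes and 39.9% of those tested in both tables. It stood before 47.8% of the other replication genes and before 93.3% of the mitosis markers with an entry, 14 of 15. The word TTTGAA of the CHR element, typical of mitotic genes, stood before 4 members, or 11.8%, against 18.3% of all genes and 12.9% of those tested in both tables, so its share in the members is near that of tested genes. A match is a description and not a bound site. The stretches below are shown because each holds E2F words or the CCAAT box of a gene that the results turn on, and no annotated exon. Capitals mark the motif, and each runs 5′ to 3′ on the strand of its gene.
Cdc6, chr11:98907983-98908050, plus strand, E2F word: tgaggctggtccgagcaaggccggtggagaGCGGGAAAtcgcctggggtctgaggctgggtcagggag
Mcm5, chr8:75109326-75109397, plus strand, 2 overlapping E2F words: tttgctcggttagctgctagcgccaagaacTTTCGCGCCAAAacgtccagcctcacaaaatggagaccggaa
Mcm6, chr1:128359715-128359845, minus strand, 3 E2F words: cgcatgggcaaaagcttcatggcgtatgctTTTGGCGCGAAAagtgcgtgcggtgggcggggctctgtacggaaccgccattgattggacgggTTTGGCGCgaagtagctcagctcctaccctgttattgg
Pola1, chrX:93632256-93632323, minus strand, E2F word: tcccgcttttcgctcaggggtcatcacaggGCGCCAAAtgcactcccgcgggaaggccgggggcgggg
Rrm2, chr12:24708174-24708238, plus strand, CCAAT box: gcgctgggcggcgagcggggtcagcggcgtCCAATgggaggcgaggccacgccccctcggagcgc
Mcm10, chr2:5012792-5012919, minus strand, 2 CCAAT boxes: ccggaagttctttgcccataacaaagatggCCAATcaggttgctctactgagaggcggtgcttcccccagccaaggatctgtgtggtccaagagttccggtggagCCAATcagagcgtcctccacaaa
The 9 members with an E2F word had a median log2 fold change of 0.39 in LSK and 0.58 in LinNeg, and the 25 without one had 0.50 in LSK and 0.62 in LinNeg. Cdc6 and Orc1, which hold E2F words, were among the strongest rises. Mcm6 and Pola1, which also hold E2F words, were among the smallest changes.

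**Figure D2:**
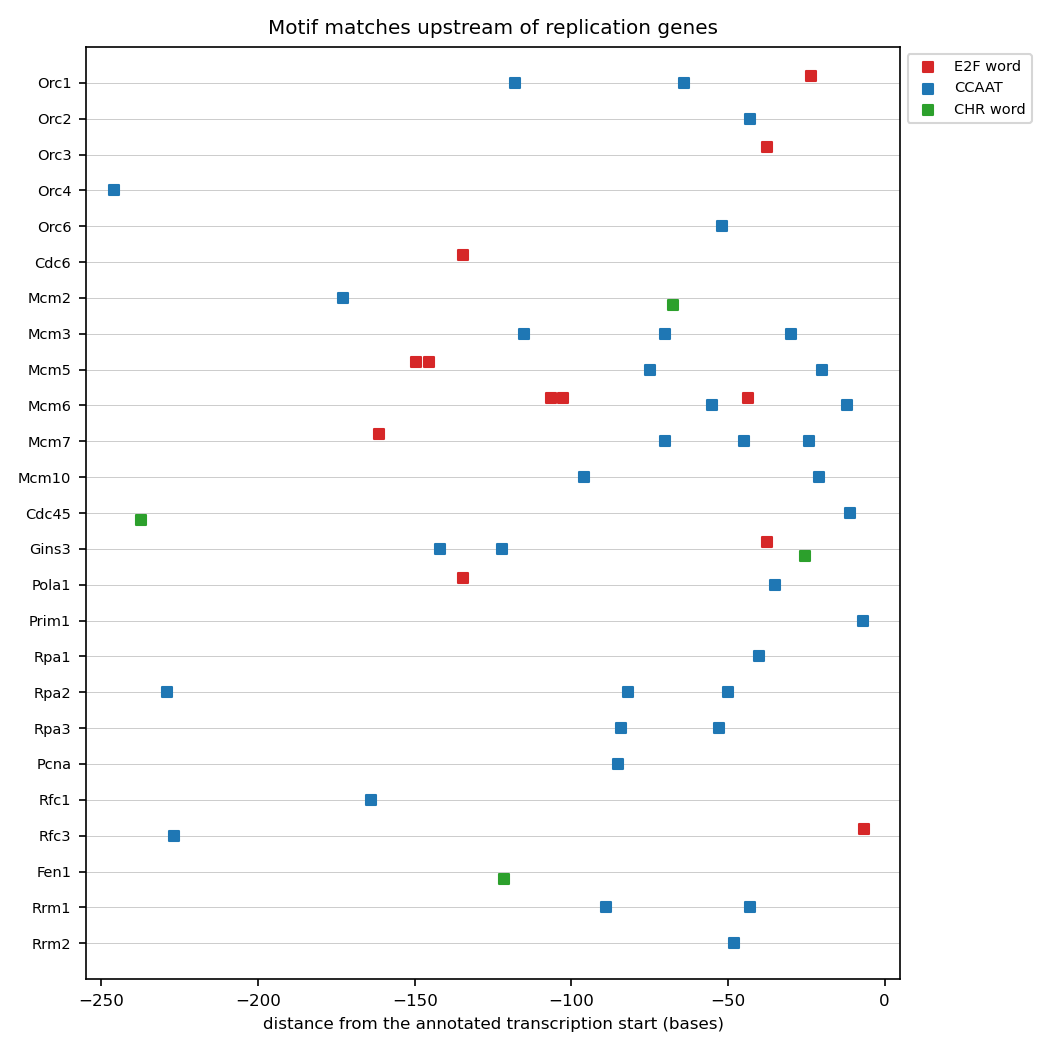
Positions of motif matches in the 250 bases before the annotated starts of the 25 members with any match. The x axis is the distance from the start in bases, squares are matches to E2F words, CCAAT and the CHR word, and members with several starts have them on 1 line; most CCAAT matches lie in the right part of the window, nearer the start.

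The origin recognition complex, the 6 proteins that mark origins, had the highest median of the 9 roles in LinNeg, at 1.23, where all 6 genes rose. In LSK 5 of the 6 rose, with a median of 0.75, below the 0.996 of the helicase loaders. Beside the counts of this and the following roles, 32.4% of all tested genes rose in LSK and 22.1% in LinNeg. Orc1, the regulated large subunit, had derived means of 1460 in KO and 646 in WT of LSK, and 1875 in KO and 552 in WT of LinNeg. In the authors' deposited tables it was at 1.18 (standard error 0.09, adjusted p = 3.26e-41) in LSK and 1.76 (standard error 0.24, adjusted p = 3.35e-12) in LinNeg, the highest value of any member in LinNeg. Orc2, a core subunit, was at 1.11 (standard error 0.07) in LSK and 1.46 (standard error 0.20) in LinNeg in the authors' deposited tables. Its exons share 29.8% of their bases with Nif3l1 on the other strand, which was at 0.32 in LSK and 0.60 in LinNeg. Orc6 rose in both, at 0.89 in LSK and 1.02 in LinNeg, and Orc3 rose least in LinNeg, at 0.59.

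Orc4 and Orc5, ATPase-fold subunits of the complex, differed between the populations. Orc4 had derived means of 1541 in KO and 1499 in WT of LSK, and 2466 in KO and 1308 in WT of LinNeg. It was at 0.04 (standard error 0.07, adjusted p = 0.65) in LSK and 0.92 (standard error 0.19, adjusted p = 1.58e-05) in LinNeg in the authors' deposited tables. The difference of LSK minus LinNeg was -0.88 (95% interval -1.28 to -0.47, adjusted p = 0.000168, two-sided normal test over all genes). Orc4 thus rose in LinNeg and was near level in LSK. Orc5 was at 0.61 (standard error 0.10) in LSK and 1.45 (standard error 0.19) in LinNeg in the authors' deposited tables, with a difference of -0.84 (95% interval -1.26 to -0.42, adjusted p = 0.000515). Orc4 shares 5.98% of its exonic bases with Acvr2a on the other strand, which was at -1.86 in LSK and 0.19 in LinNeg. The share of this in the difference was not tested.

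Both helicase loaders rose in both populations. Cdc6, an ATPase that joins the origin complex to load the helicase, had derived means of 5334 in KO and 2274 in WT of LSK, and 5051 in KO and 2580 in WT of LinNeg. In the authors' deposited tables it was at 1.23 (standard error 0.06, adjusted p = 5.08e-87) in LSK and 0.97 (standard error 0.21, adjusted p = 2.34e-05) in LinNeg. Its E2F word is printed above. Cdt1, its partner and the target of the inhibitor geminin, was at 0.76 in LSK and 0.78 in LinNeg in the authors' deposited tables, with adjusted p of 1.06e-32 and 0.00118. The 2 estimates differed by -0.01 (95% interval -0.45 to 0.42).

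The MCM genes encode the 6 subunits of the helicase ring. In LSK 5 of 6 rose, with values between 0.06 and 0.54, and in LinNeg 4 of 6 rose, with values between 0.17 and 0.86. Mcm2 led in both, with derived means of 14118 in KO and 9705 in WT of LSK, and 14248 in KO and 7835 in WT of LinNeg. In the authors' deposited tables Mcm2 was at 0.54 (standard error 0.06, adjusted p = 3.54e-21) in LSK and 0.86 (standard error 0.21, adjusted p = 0.000238) in LinNeg. Mcm4 followed at 0.53 in LSK and 0.80 in LinNeg, with adjusted p of 3.41e-19 and 6.02e-05 in the authors' deposited tables.

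Mcm5 and Mcm6 had the lowest values of the ring in LSK, and Mcm6 and Mcm3 in LinNeg. Mcm5 had derived means of 10429 in KO and 9991 in WT of LSK, and 14357 in KO and 9806 in WT of LinNeg. It was at 0.06 (standard error 0.07, adjusted p = 0.472) in LSK and 0.55 (standard error 0.18, adjusted p = 0.0081) in LinNeg in the authors' deposited tables. The effects differed by -0.49 (95% interval -0.87 to -0.10, adjusted p = 0.0409), a call that was lost when both tables were recentred on their median gene. Mcm6 was at 0.21 (standard error 0.05, adjusted p = 0.000105) in LSK and 0.17 (standard error 0.18, adjusted p = 0.477) in LinNeg in the authors' deposited tables. Mcm3 and Mcm7 were at 0.35 and 0.39 in LSK, both called, and at 0.38 and 0.58 in LinNeg, where Mcm7 alone was called. The stretches upstream of Mcm5 and Mcm6 hold 2 and 3 E2F words, the most of any member.

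The genes that turn the loaded ring into a moving helicase all rose in LSK. In LinNeg 2 of 6 rose, or 33.3%, where 22.1% of all genes rose. Mcm10, which helps to start unwinding, was at 0.88 (standard error 0.07, adjusted p = 1.13e-37) in LSK and 0.67 (standard error 0.21, adjusted p = 0.00538) in LinNeg in the authors' deposited tables. The GINS genes Gins1, Gins2, Gins3 and Gins4 lay between 0.39 and 0.56 in LSK and between 0.40 and 0.65 in LinNeg. Gins1 alone of them was called in LinNeg, with an adjusted p of 0.012. The exons of Gins2 share 67.3% of their bases with Gse1 on the other strand, which was at -0.27 in LSK and -0.39 in LinNeg.

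Cdc45, the helicase cofactor, was the member whose rise was larger in LSK. It had derived means of 2404 in KO and 1537 in WT of LSK, and 1962 in KO and 1989 in WT of LinNeg. In the authors' deposited tables it was at 0.65 (standard error 0.07, adjusted p = 1.7e-20) in LSK and -0.02 (standard error 0.18, adjusted p = 0.946) in LinNeg. The difference was 0.66 (95% interval 0.28 to 1.05, adjusted p = 0.00362), a call that was lost when gene means were set to equal sums. The count of Cdc45 hardly moved between the LinNeg labels. The values of its GINS partners there had the same sign as in LSK, but Gins1 alone of them was called, and genes were not tested against each other.

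The polymerase and primase genes had unlike values. Prim2, the large subunit of primase, which lays the RNA primers, was at 0.89 (standard error 0.07, adjusted p = 6.14e-32) in LSK and 0.70 (standard error 0.22, adjusted p = 0.00411) in LinNeg in the authors' deposited tables. Pola2, the accessory subunit of polymerase alpha, was at 0.38 in LSK and 0.67 in LinNeg, and Prim1, the catalytic subunit of primase, at 0.31 in LSK and 0.60 in LinNeg, all called. Among the members, the catalytic subunits of the DNA polymerases had lower values than these, though genes were not tested against each other. Of the accessory subunits outside the members, Pold3, Pold4 and Pole4 lay between -0.15 and 0.14 in LSK. Pold2, Pole2 and Pole3 lay between 0.50 and 0.93 there. Pola1 was at 0.07 (standard error 0.06, adjusted p = 0.266) in LSK and 0.29 (standard error 0.19, adjusted p = 0.222) in LinNeg in the authors' deposited tables.

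Pole, of the leading strand polymerase, and Pold1, of the lagging strand polymerase, had no common direction. Pole was at 0.12 (adjusted p = 0.113) in LSK and 0.55 (adjusted p = 0.0135) in LinNeg in the authors' deposited tables. Pold1 had derived means of 7606 in KO and 6628 in WT of LSK, and 4259 in KO and 4815 in WT of LinNeg. It was at 0.20 (standard error 0.07, adjusted p = 0.00644) in LSK and -0.18 (standard error 0.14, adjusted p = 0.338) in LinNeg in the authors' deposited tables. The difference of Pold1, 0.38 (95% interval 0.06 to 0.69), had an adjusted p of 0.0548. Relative to the median gene it stood lower in LinNeg, at -0.33, and past the threshold.

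The subunits of replication protein A, which coats single-stranded DNA, rose in 3 of 3 cases in LSK and 2 of 3 in LinNeg. Rpa1, the large subunit, was at 0.50 (standard error 0.05, adjusted p = 2.73e-23) in LSK and 0.71 (standard error 0.18, adjusted p = 0.000513) in LinNeg in the authors' deposited tables. Rpa2 was at 0.44 in LSK and 0.55 in LinNeg, with adjusted p of 3.69e-11 and 0.0167 in the authors' deposited tables. Rpa3, the smallest subunit, was called in LSK at 0.72, and was at 0.23 (adjusted p = 0.481) in LinNeg.

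Pcna, the sliding clamp, had the highest level per exonic length of the 41 genes under either WT label. Its derived mean per kilobase in LSK was 5564 in KO and 4236.5 in WT, and in LinNeg it was 5204 in KO and 3652 in WT. Its log2 fold change was 0.39 (standard error 0.06, adjusted p = 5.62e-12) in LSK and 0.51 (standard error 0.20, adjusted p = 0.0253) in LinNeg in the authors' deposited tables. GENCODE lists the pseudogenes Pcna-ps1 and Pcna-ps2, so some of its reads may be uncertain. In LSK WT the next levels per kilobase were those of Mcm6 at 3750, Mcm7 at 3062 and Mcm3 at 3024, and the lowest were those of Orc5 at 163 and Gins2 at 185. Orc5 was also the lowest in LinNeg WT, at 118. The length used is the union of all annotated exons of a gene, so these levels and their order depend on the annotation. No error can be given for these means.

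**Figure D3:**
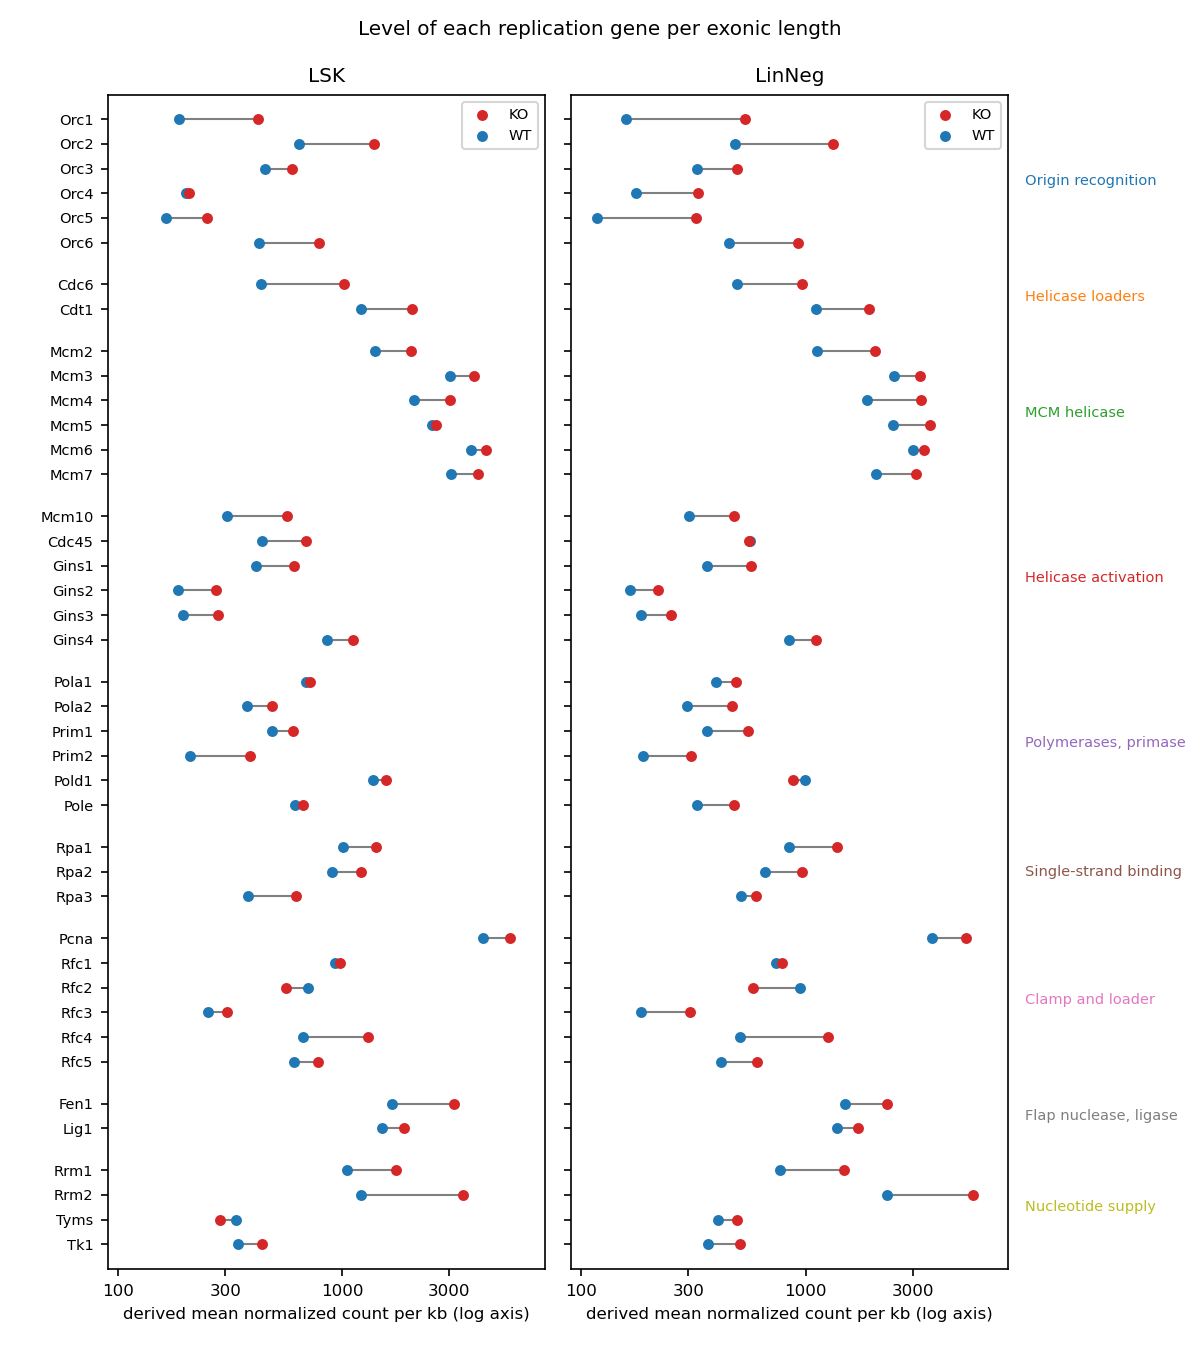
Derived mean normalised count per kilobase of exon for each member under KO (red) and WT (blue), in LSK (left) and LinNeg (right), on a log axis. Lines join the 2 labels of a gene; Pcna and the MCM genes are at the high end, and the red point lies left of the blue one for Rfc2 in both panels, for Tyms in LSK and for Pold1 and Cdc45 in LinNeg.

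The clamp loader held members that moved in opposite directions. Rfc4, a small subunit, had derived means of 1985 in KO and 1021 in WT of LSK, and 1922 in KO and 786 in WT of LinNeg. It was at 0.96 (standard error 0.09, adjusted p = 2.48e-26) in LSK and 1.29 (standard error 0.22, adjusted p = 5.45e-08) in LinNeg in the authors' deposited tables. Rfc3 and Rfc5 rose by less, at 0.29 and 0.35 in LSK and 0.73 and 0.53 in LinNeg. Rfc1, the large subunit, was at 0.07 (adjusted p = 0.354) in LSK and 0.09 (adjusted p = 0.65) in LinNeg in the authors' deposited tables. The exons of Rfc4 share 12.7% of their bases with Eif4a2 on the other strand, which was at -0.05 in LSK and 0.35 in LinNeg. Rfc5, Orc1 and Mcm7 also share 10.7%, 10.8% and 12.6% of theirs with other genes. The part of such overlap in these values was not tested.

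Rfc2 (chromosome 5, 134581366 to 134601805, plus strand, mm10), another small subunit, was the lone member that fell in both populations. It had derived means of 3533 in KO and 4445 in WT of LSK, and 3689 in KO and 5934 in WT of LinNeg. In the authors' deposited tables it was at -0.33 (standard error 0.06, adjusted p = 6.55e-08) in LSK and -0.69 (standard error 0.14, adjusted p = 1.4e-05) in LinNeg. The fall was called under every scaling tried. Rfc2 shares 952 exonic bases, or 15.1%, with Lat2 on the other strand, an adaptor gene of myeloid and mast cells. Lat2 was at -1.26 (standard error 0.12) in LSK and -2.12 (standard error 0.21) in LinNeg in the authors' deposited tables. The sources used here do not say whether counting used strand, and the part of Lat2 reads in the value of Rfc2 was not tested.

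Of the pair that finishes the lagging strand, Fen1 rose in both populations and Lig1 in LSK. Fen1, the flap nuclease, had derived means of 7588 in KO and 4050 in WT of LSK, and 5600.0 in KO and 3646 in WT of LinNeg. It was at 0.91 (standard error 0.05, adjusted p = 3.84e-69) in LSK and 0.62 (standard error 0.18, adjusted p = 0.00262) in LinNeg in the authors' deposited tables. Most of its exonic bases, 84.2%, are also covered by genes on the other strand. Lig1, the ligase that seals the fragments, was at 0.33 (adjusted p = 4.12e-06) in LSK and 0.31 (adjusted p = 0.175) in LinNeg in the authors' deposited tables.

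Nucleotide supply held both the largest rise in LSK and a fall. Rrm2 (chromosome 12, 24708241 to 24714146, plus strand, mm10), the S-phase subunit of ribonucleotide reductase, had derived means of 9528 in KO and 3355 in WT of LSK, and 15552 in KO and 6371 in WT of LinNeg. In the authors' deposited tables it was at 1.51 (standard error 0.05, adjusted p = 2.15e-189) in LSK and 1.29 (standard error 0.21, adjusted p = 4.34e-09) in LinNeg. Its upstream stretch above holds a CCAAT box and none of the 4 E2F words. Rrm1, the large subunit of the enzyme, was at 0.72 (standard error 0.05) in LSK and 0.95 (standard error 0.20) in LinNeg in the authors' deposited tables. Rrm2 thus stood at 2.84-fold in LSK where Rrm1 stood at 1.65-fold.

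The thymidine enzymes were less uniform. Tyms, thymidylate synthase, had derived means of 1740.0 in KO and 2040 in WT of LSK, and 3018 in KO and 2485 in WT of LinNeg. It fell to -0.23 (standard error 0.09, adjusted p = 0.0256) in LSK and was at 0.28 (standard error 0.17, adjusted p = 0.192) in LinNeg in the authors' deposited tables. The effects differed by -0.51 (95% interval -0.90 to -0.12, adjusted p = 0.0332), a call lost after recentring on the median gene, and the fall in LSK was lost at an adjusted p of 0.01. A pseudogene, Tyms-ps, is annotated. Tk1, the thymidine salvage kinase, was at 0.35 (adjusted p = 3.36e-07) in LSK and 0.47 (adjusted p = 0.0498) in LinNeg in the authors' deposited tables.

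Between the populations, 5 of the 41 members differed in their KO effect, against 31.9% of the 15735 genes tested. Cdc45 was higher in LSK, and Orc4, Orc5, Mcm5 and Tyms were lower, where 17.4% of all genes were higher and 14.5% lower. The tables were normalised separately, and the count depends on that scale. With gene means set to equal sums under both labels 17 of the 41 members differed, against 34.8% of all genes, and all 17 were lower in LSK. With recentring 5 did, against 34.4% of all genes, and 3 of them were among those above. Orc1 missed the threshold with a difference of -0.59 (95% interval -1.09 to -0.09, adjusted p = 0.0635), and so did Rfc2 with 0.35 (95% interval 0.05 to 0.66, adjusted p = 0.0685).

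**Figure D4:**
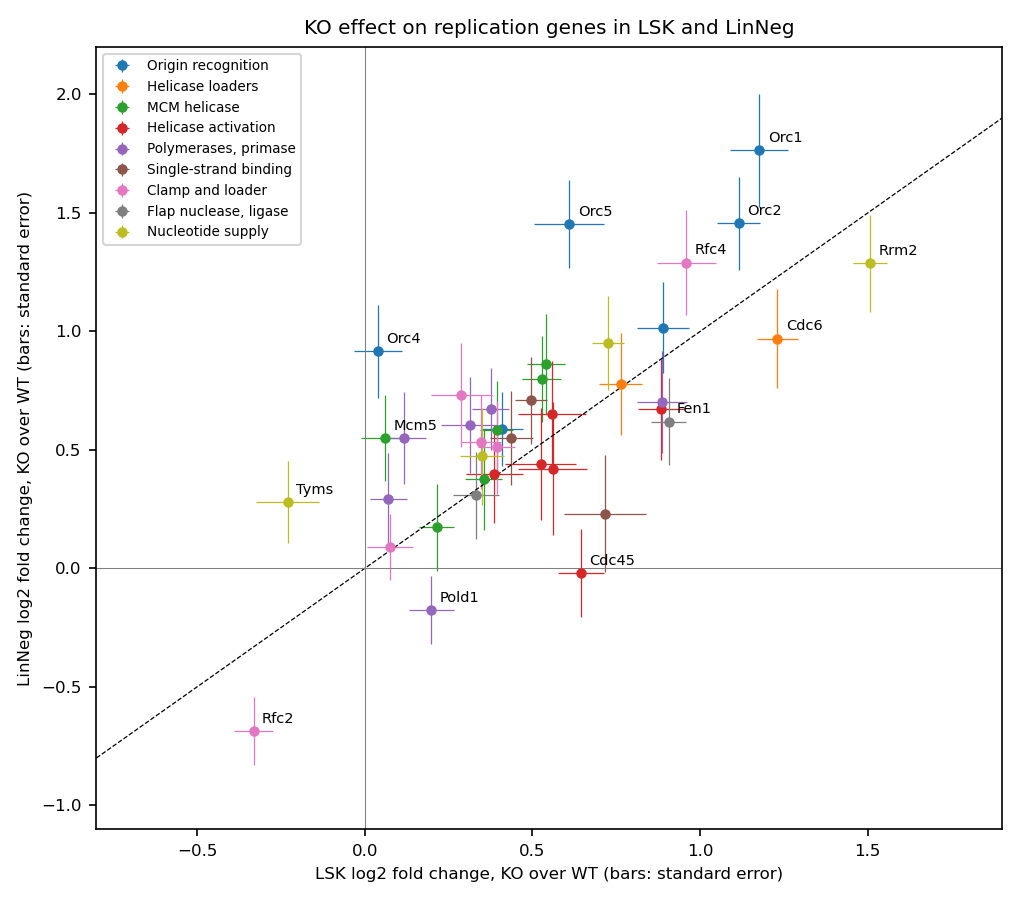
Log2 fold change of each member in LSK (x axis) against LinNeg (y axis), KO over WT, with standard errors as bars and colours for roles. The dashed line marks equal effects; Orc4, Orc5, Mcm5 and Tyms lie above it and Cdc45 below it, and Rfc2 alone lies below 0 on both axes.

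Other replication genes, from a list of 57 with a row, moved in the same main direction. In LSK 42 rose and 4 fell, with a median of 0.37, against 32.4% of all genes that rose and 29.2% that fell. In LinNeg 28 rose and 5 fell, with a median of 0.46, against 22.1% that rose and 19.3% that fell. Of 11 genes of initiation control, 8 rose and 1 fell in LSK and 3 rose and 1 fell in LinNeg, where the share that rose, 27.3%, is near the 22.1% of all genes. Recql4, a helicase needed at initiation, was at 1.52 in LSK and 1.77 in LinNeg, and geminin, Gmnn, at 0.98 (adjusted p = 1.95e-22) in LSK and 0.52 (adjusted p = 0.09) in LinNeg in the authors' deposited tables. Of 17 fork and polymerase accessory genes, 13 rose in LSK and 7 in LinNeg, and 0 fell. Among them Tipin, of the fork protection complex, was at 0.80 in LSK and 0.88 in LinNeg in the authors' deposited tables. Of 8 fork processing genes, 7 rose in LSK, and 5 rose and 1 fell in LinNeg. The one that fell was Top2a, the topoisomerase that untangles sister chromatids, at 0.15 (adjusted p = 0.0119) in LSK and -0.50 (adjusted p = 0.0132) in LinNeg in the authors' deposited tables. Of 8 genes of chromatin at the fork, 5 rose in each population. Of 13 further nucleotide genes, 9 rose and 3 fell in LSK and 8 rose and 3 fell in LinNeg. Mthfd1, a folate enzyme, led them at 1.80 in LSK and 2.60 in LinNeg in the authors' deposited tables.

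Mitosis markers rose in LSK and had no common direction in LinNeg. In LSK 17 of 18 rose and 0 fell, with a median of 0.44, where 32.4% of all genes rose. In LinNeg 3 rose and 2 fell, with a median of 0.02, which is near the 22.1% of all genes that rose and the 19.3% that fell. The difference between the populations was called for 10 of the 18, all higher in LSK, where 17.4% of all genes were higher. Ccnb1, the mitotic cyclin B1, was at 0.81 in LSK and 0.70 in LinNeg, and Cenpf, a kinetochore protein, at -0.02 in LSK and -0.50 in LinNeg in the authors' deposited tables. Ube2c, a ubiquitin enzyme of mitotic exit chosen after its values were seen, was at 0.78 in LSK and -0.25 in LinNeg in the authors' deposited tables, with a difference of 1.03 (adjusted p = 1.49e-06). No test was made between the lists.

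**Figure D5:**
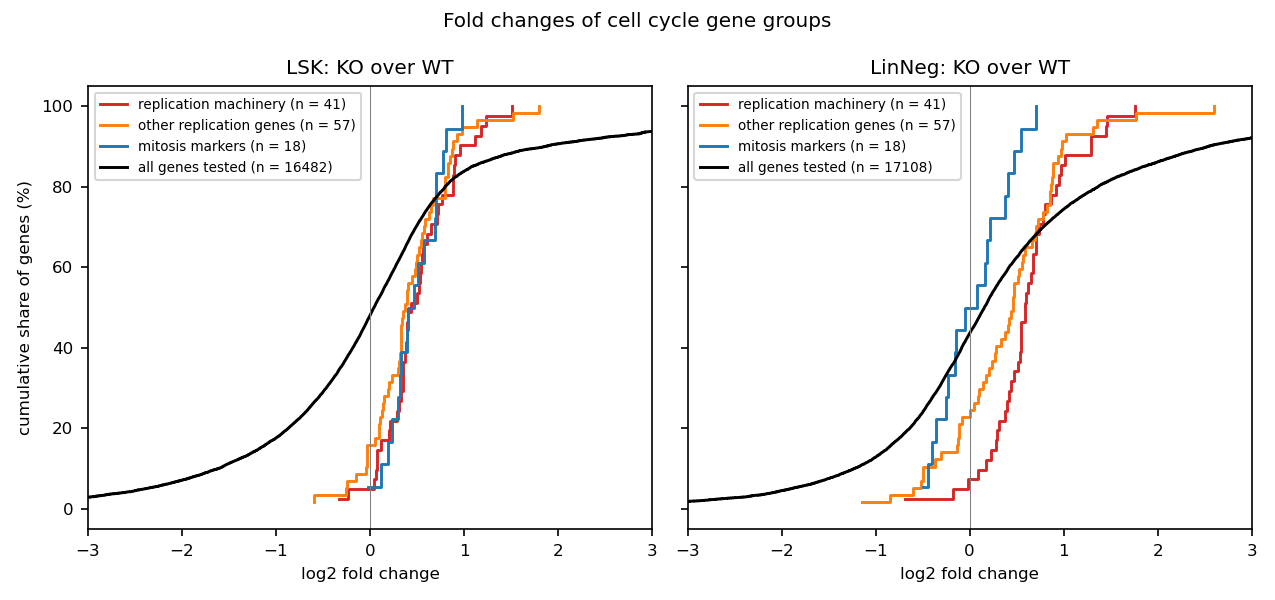
Cumulative share of genes (y axis, %) by log2 fold change, KO over WT (x axis), in LSK (left) and LinNeg (right), for the 41 members, 57 other replication genes, 18 mitosis markers and all tested genes. The mitosis curve runs with the replication curve in LSK, with medians of 0.44 for both, and left of it in LinNeg, with medians of 0.02 and 0.59; the x axis ends at 3 on either side.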

How the data were processed

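Bone marrow RNA was sequenced after lineage depletion, flow sorting and ribosomal RNA depletion, per the labels' protocols. HISAT2, StringTie, SAMtools 1.10 and DESeq2 are named, with build mm10, per the submitters' processing notes; which program counted reads, over which annotation and with what use of strand is not given in the sources used here. Per the file headers, the authors deposited for each gene a mean of normalised counts over the libraries of a comparison (a signal on a linear scale, not raw counts), a log2 fold change with its standard error, a Wald statistic (a score), and a p-value with its adjusted p-value. Depth per library is unknown. Of the 24542 rows of each table, 5 name no gene and 4 repeat a symbol and were left out; the unassigned row held 26.4% of the summed means in LSK and 38.0% in LinNeg. The deposited log2 fold changes are rounded, so the product of statistic and standard error was used in their place.

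Tests on counts per library had been planned. The tables hold the authors' comparisons, so the call is their DESeq2 adjusted p under 0.05. The difference between populations was divided by its standard error, both tables' errors added in squares, and tested against the normal distribution, two-sided, with Benjamini-Hochberg adjustment over 15735 genes. It was tested on simulated data drawn with the authors' standard errors. The simulation cannot show whether those errors or the separate scaling of the tables are right. Exonic lengths and coordinates are from GENCODE M21 (mm10), promoters from RefSeq. Alternatives were a stricter threshold, a 1.5-fold minimum, other scalings, and other gene filters. Members, lists and tests were chosen with earlier results of these data known. Members named in full were the 3 highest and 3 lowest of each table, those of unlike sign, and up to 2 per role by adjusted p; others were added after their values were seen. Sequences of proteins were not used here. Scripts ran in Python 3.11.15 with scipy 1.17.1, numpy 2.4.6, pandas 2.3.3 and, for plots, matplotlib 3.10.9.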

Additional observations from a re-analysis of the deposited data

Results flagged for a closer look

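For 5 of the 41 members the KO effect differed between LSK and LinNeg by the test of the difference over all genes. Of all genes tested, 31.9% differed. The log2 differences of these members, LSK minus LinNeg, were as follows. Orc4 differed by -0.88, with derived means of 1541 in KO and 1499 in WT of LSK and 2466 in KO and 1308 in WT of LinNeg. Orc5 differed by -0.84, rising in both populations and more in LinNeg. Mcm5 differed by -0.49, rising in LinNeg alone. Tyms differed by -0.51, falling in LSK with no call in LinNeg. Cdc45 differed by 0.66, rising in LSK with no call in LinNeg. Of these, Orc4, Orc5 and Cdc45 passed an adjusted p of 0.01. Erythroid, stem, myeloid and neural markers differed between the populations in 3 of 11, 11 of 15, 12 of 12 and 13 of 14 tested genes. The erythroid share is near the 31.9% of all genes. The part of these markers in the values of the members was not tested.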

How the results depend on the processing

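No paired analysis was possible because the tables hold no values per library; leaving out each replicate was not run for the same reason. With a change of at least 1.5-fold asked besides the adjusted p, 14 members were called in LSK, against 36 without, as most rises there were small. In LinNeg 22 were called, against 29. Of all genes, 37.5% were called in LSK and 34.8% in LinNeg in either direction with that minimum. Counted without direction, members were thus not called more often than other genes in LSK. All 14 members called in LSK rose, and in LinNeg 21 rose and 1 fell. The shares of all genes by direction were not computed at that minimum. The number of members that differed between LSK and LinNeg was 5 as reported and 3 at an adjusted p of 0.01. It was 17 with gene means set to equal sums. Of all genes, 31.9%, 23.7% and 34.8% differed at these settings. KO over WT sums were at 0.11 in LSK and -0.16 in LinNeg on the log2 scale, and the cause was not tested. Recentring on the median gene kept all 36 calls in LSK, and in LinNeg kept 20 of 29 and added Pold1. With it 61.6% of all genes were called in LSK and 41.7% in LinNeg. Equal sums kept 33 of 36 in LSK and all 29 in LinNeg, where it added 6, and 61.7% and 42.9% of all genes were called. Over both scalings no called member changed sign. Adjustment over all genes with a p, and a mean of at least 100, left 36 calls in LSK and 28 to 29 in LinNeg. At these settings 55.2% and 78.4% of all genes were called in LSK, and 36.8% and 53.5% in LinNeg. The standard errors of LinNeg limit what could be called there.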

Other observations

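Some related genes had unlike values, though differences between genes were not tested. Of the chromatin assembly factor subunits, which place histones behind the fork, Chaf1b was at 0.10 in LSK and 1.31 in LinNeg in the authors' deposited tables, a difference of -1.21 (adjusted p = 4.88e-08), while Chaf1a was at 0.58 in LSK and 0.51 in LinNeg. Of the histone chaperones, Asf1b was at 0.83 in LSK and -0.12 in LinNeg, a difference of 0.95 (adjusted p = 7.98e-05), and Asf1a was at 0.63 in LSK and 0.85 in LinNeg. Rrm2b, the ribonucleotide reductase subunit that p53 induces, fell where its S-phase counterpart Rrm2 rose: it was at -0.59 (adjusted p = 1.38e-05) in LSK and -0.84 (adjusted p = 0.000218) in LinNeg in the authors' deposited tables. Cad, which starts pyrimidine synthesis, was at 0.37 in LSK and 1.36 in LinNeg, a difference of -0.98 (adjusted p = 0.000261). Pclaf, a Pcna-binding factor found under an older symbol, was at 0.55 in LSK and -0.37 in LinNeg, a difference of 0.92 (adjusted p = 2.37e-05). These genes were chosen after their values were seen.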
